A study of Homo sapiens with 6 samples.

Results

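HCFC1, ZMIZ1 and TNRC18 encode large nuclear regulators, and their transcripts were among the most reduced in C4-2 cells treated with IPI-9119. These 3 were chosen by that fall, the difference between IPI-9119 and DMSO libraries in normalised count, and with them were taken OGT and OGA, the enzymes that write and erase the sugar mark carried by the HCFC1 protein, and ZMIZ2, the paralog of ZMIZ1. All 6 were matched by Ensembl identifier in the deposited table of 14456 genes, and all 6 passed the filter on low values (a mean of at least 10). The levels that chose HCFC1, ZMIZ1 and TNRC18 come from the same contrast described here, so their values are given as a description with no test. OGT, OGA and ZMIZ2 were named for their relation to the others, although earlier results of these data were known, and their rows of the test across all genes are given.

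C4-2 is a castration-resistant prostate cancer line that descends from LNCaP. Cultures in RPMI medium with fetal bovine serum received either 100 nM IPI-9119, an inhibitor of fatty acid synthase, for 6 days (3 libraries) or 0.1% DMSO as vehicle (3 libraries). Polyadenylated RNA was sequenced, and the whole reads recovered from the deposited values numbered 19090749 to 20422882 per library with IPI-9119 and 21952620 to 23448035 with DMSO. Whether replicates came from separate cultures is not stated, so p-values here measure only how these libraries vary, possibly for technical reasons. All 9 prostate epithelial markers listed were in the table, summing to 137197 to 143072 normalised counts per IPI-9119 library and 230546 to 239799 per DMSO library, and the part of this difference in the values below was not tested. KLK3, which encodes prostate-specific antigen, made up much of the sum (mean 63576 with IPI-9119 and 122882 with DMSO), while FOLH1 had a higher mean with IPI-9119 (26357, against 19514 with DMSO), as did EPCAM (3758, against 3495), whose libraries overlapped between the groups. None of the 3 basal epithelial or 3 leukocyte markers was in the table. Of 3 endothelial markers it held KDR and of 5 fibroblast markers COL1A1 and COL1A2, each at no more than 74.2 normalised counts in any library. In bulk RNA, fewer cells of a type and less RNA per cell cannot be told apart.

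HCF-1, the protein of HCFC1, was first known as a host partner of a herpes simplex virus activator. It is tethered to promoters by DNA-binding factors such as THAP11, ZNF143 and E2F proteins, and brings histone methyltransferase complexes of the SET1 and MLL type or the SIN3 deacetylase complex. OGT attaches O-linked N-acetylglucosamine (O-GlcNAc) to serine and threonine of nuclear and cytosolic proteins and also cleaves HCF-1, and OGA removes the sugar. The donor, UDP-GlcNAc, is made by the hexosamine pathway. ZMIZ1 and ZMIZ2 have a zinc finger of the kind found in the PIAS family of SUMO ligases and are known as coactivators of the androgen receptor. TNRC18 has a BAH domain that reads trimethylated H3K9, and is known for silencing endogenous retroviruses.

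The coding sequences of the 4 genes with the largest falls are rich in G and C, and those of OGT and OGA are not, which stretches of them show. Each is the longest run of one repeated trinucleotide in the coding sequence of the gene, in capitals, with 30 coding bases on either side (GENCODE 29 transcript with the longest coding sequence, 5′ to 3′ along the transcript).
HCFC1, chromosome X: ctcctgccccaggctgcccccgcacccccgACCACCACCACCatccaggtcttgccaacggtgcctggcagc
ZMIZ1, chromosome 10: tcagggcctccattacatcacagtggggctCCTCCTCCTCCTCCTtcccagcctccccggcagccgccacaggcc
TNRC18, chromosome 7: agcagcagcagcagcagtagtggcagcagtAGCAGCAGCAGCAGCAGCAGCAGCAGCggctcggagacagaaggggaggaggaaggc
ZMIZ2, chromosome 7: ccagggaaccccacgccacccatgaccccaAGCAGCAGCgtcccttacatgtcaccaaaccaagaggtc
OGA, chromosome 10: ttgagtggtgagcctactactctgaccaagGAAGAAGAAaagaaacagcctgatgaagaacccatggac
OGT, chromosome X: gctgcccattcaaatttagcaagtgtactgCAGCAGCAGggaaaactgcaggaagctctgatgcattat
The tract of TNRC18 held 9 copies of AGC from coding base 7705. That was longer than the longest tract in 99.3% of the 12069 coding sequences examined, in which the median was 3 copies. ZMIZ1 had 5 copies of CCT and HCFC1 4 of ACC, while ZMIZ2, OGA and OGT each had 3 copies of a unit. GC content at the last base of the codons was 82.3% in TNRC18, 76.2% in ZMIZ1, 72.4% in HCFC1 and 72.2% in ZMIZ2, against 41.8% in OGT and 41.7% in OGA and a median of 58.3%. The coding sequences of TNRC18 (8904 bases) and HCFC1 (6240 bases) were also longer than those of ZMIZ1 (3201), OGT (3138), ZMIZ2 (2769) and OGA (2748), all above the median of 1434.

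HCFC1 (ENSG00000172534, chromosome X, 153947553 to 153971807, minus strand, GRCh38, GENCODE 29) had 49.5, 57.8 and 59.4 normalised counts in the IPI-9119 libraries, against 623, 976 and 745 in the DMSO libraries. The highest IPI-9119 library was 10.5-fold below the lowest DMSO library. The means were 55.6 ± 5.28 with IPI-9119 and 781 ± 179 with DMSO (SD, n = 3 each), a log2 fold change of -3.77 (SE 0.15) on the scale of log2(value + 1). The IPI-9119 value rested on 154 reads over its 3 libraries, and the DMSO value on 2542.

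ZMIZ1 (ENSG00000108175, chromosome 10, 79069035 to 79316528, plus strand) had 108, 152 and 153 normalised counts with IPI-9119, against 1662, 2236 and 1946 with DMSO. Here too the groups stood apart, by 10.9-fold between the nearest libraries, and IPI-9119 replicate 1 lay below the other IPI-9119 libraries. The means were 137 ± 25.8 with IPI-9119 and 1948 ± 287 with DMSO (SD, n = 3 each; log2 fold change -3.82, SE 0.14).

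TNRC18 (ENSG00000182095, chromosome 7, 5306790 to 5425414, minus strand) had 38.0, 40.4 and 41.8 normalised counts with IPI-9119, against 622, 857 and 527 with DMSO. Its IPI-9119 libraries were within 1.10-fold of each other, while its DMSO libraries spanned 1.63-fold, and the groups were 12.6-fold apart at their nearest. The means were 40.0 ± 1.94 with IPI-9119 and 669 ± 170 with DMSO (SD, n = 3 each; log2 fold change -4.00, SE 0.16). Of 14437 genes tested, 6 had a lower log2 fold change than TNRC18, 8 than ZMIZ1 and 9 than HCFC1, where 1.84% of genes were at -2 or lower. Among protein-coding genes with a mean of at least 100 these genes were the 4th, 6th and 7th lowest, with SRRM2 (-4.03) just below them, CREBBP (-3.91) between them and BCL9L (-3.71) just above.

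**Figure D1:**
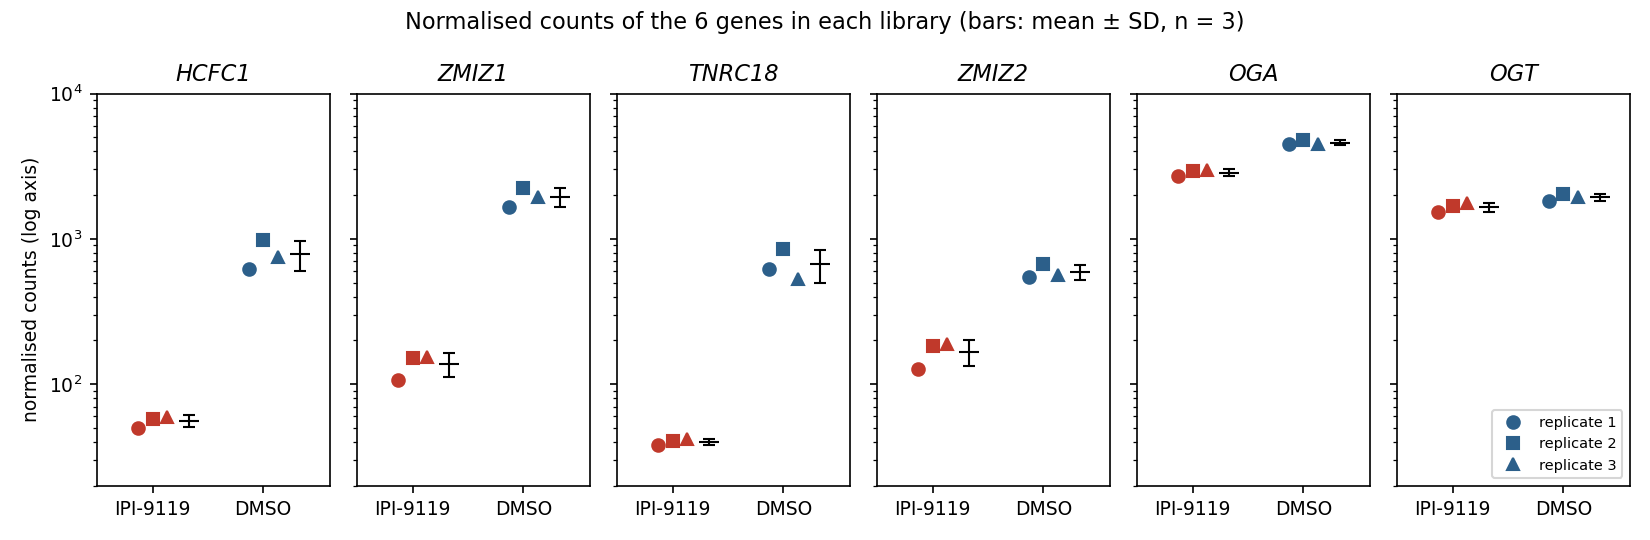
Normalised counts of HCFC1, ZMIZ1, TNRC18, ZMIZ2, OGA and OGT in each IPI-9119 library (red, left) and DMSO library (blue, right) on a log axis, with marker shapes for the replicate numbers and black bars for mean ± SD (n = 3). For each gene the IPI-9119 libraries lie below the DMSO libraries, by 12.6-fold at the nearest for TNRC18 and by 1.04-fold for OGT.

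ZMIZ2, the paralog of ZMIZ1, fell as well, though by a smaller factor. ZMIZ2 (ENSG00000122515, chromosome 7, 44748581 to 44769881, plus strand) had 128, 182 and 189 normalised counts with IPI-9119, against 543, 667 and 563 with DMSO. IPI-9119 replicate 1 was again the lowest, and no IPI-9119 library reached a DMSO library. The means were 166 ± 33.7 with IPI-9119 and 591 ± 66.8 with DMSO (SD, n = 3 each), a log2 fold change of -1.84 (SE 0.14, limma, adjusted p 1.3e-07).

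Per kb of exonic length, the ratio of ZMIZ1 to ZMIZ2 turned over between the groups. It was 0.560, 0.553 and 0.537 in the IPI-9119 libraries, against 2.03, 2.23 and 2.30 in the DMSO libraries. ZMIZ1 was thus the more abundant of the paralogs in each DMSO library and the less abundant in each IPI-9119 library. Since ZMIZ1 was chosen for its fall, this ratio was not tested.

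The O-GlcNAc enzymes fell far less, OGA more than OGT. OGA, the hydrolase that removes the sugar (ENSG00000198408, chromosome 10, 101784443 to 101818465, minus strand), had 2686, 2935 and 2955 normalised counts with IPI-9119, against 4460, 4775 and 4479 with DMSO. Its libraries lay close together within each group and did not overlap between the groups. The means were 2859 ± 149.9 with IPI-9119 and 4572 ± 177 with DMSO (SD, n = 3 each), a log2 fold change of -0.68 (SE 0.053, limma, adjusted p 7.5e-08).

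OGT, the transferase (ENSG00000147162, chromosome X, 71533083 to 71575897, plus strand), had 1520.2, 1669 and 1749.8 normalised counts with IPI-9119, against 1819, 2029.6 and 1949.8 with DMSO. The groups were barely separate, with 1.04-fold between the highest IPI-9119 and the lowest DMSO library. The log2 fold change of OGT was -0.23 (SE 0.064, limma, adjusted p 0.0058; means 1646 ± 116 with IPI-9119 and 1933 ± 106 with DMSO, SD, n = 3 each). Over the 17 alternatives its adjusted p ran from 2.2e-04 to 0.0467.

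All 3 genes named as partner or paralog, OGT, OGA and ZMIZ2, were called lower, where 31.4% of all genes tested were called lower and 62.8% were called in either direction. For each of the 6 genes every IPI-9119 library was below every DMSO library, as for 33.9% of all genes tested, and for HCFC1, ZMIZ1 and TNRC18 the choice of genes fixed this. The ratio of OGT to OGA per kb was 0.418, 0.420 and 0.437 in the IPI-9119 libraries, against 0.301, 0.314 and 0.322 in the DMSO libraries, higher in each IPI-9119 library. The ratio of HCFC1 to OGT, the enzyme that cleaves its protein, was 0.0355, 0.0377 and 0.0370 per kb with IPI-9119, against 0.373, 0.524 and 0.416 with DMSO.

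In order of level, OGA led with 394 normalised counts per kb with IPI-9119 and 631 with DMSO, followed by OGT with 168 and 197. With IPI-9119 the next were ZMIZ2 (22.7 per kb), ZMIZ1 (12.4), HCFC1 (6.17) and TNRC18 (3.18), and no neighbours in this order overlapped in their libraries. With DMSO the order was ZMIZ1 (176 per kb), HCFC1 (86.8), ZMIZ2 (80.5) and TNRC18 (53.2). There ZMIZ1 overlapped with OGT (150 to 202 against 185 to 207 per kb), and HCFC1 with ZMIZ2 (69.2 to 108 against 73.9 to 90.9 per kb). Without division by length, HCFC1 stood at the 21.5th percentile of genes tested by normalised count with IPI-9119 and at the 65.8th with DMSO. TNRC18 stood at the 17.4th and the 62.1st, and ZMIZ1 at the 33.7th and the 84.4th.

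IPI-9119 replicate 1 was the lowest IPI-9119 library and DMSO replicate 2 the highest DMSO library for each of the 6. DMSO replicate 2 lay 0.34 above the DMSO mean on the log2 scale for HCFC1, 0.39 for TNRC18 and 0.21 for ZMIZ1, against 0.072 for OGT and 0.064 for OGA. Long GC-rich genes as a class moved the same way, with a median deviation of 0.10 in DMSO replicate 2 and -0.13 in IPI-9119 replicate 1.

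HCFC1, ZMIZ1, ZMIZ2 and TNRC18 were all within the upper quartile of tested genes both for exonic length and for GC content. Exonic length was 12572 nt for TNRC18, 11048 for ZMIZ1, 9004 for HCFC1 and 7339 for ZMIZ2, and transcript GC content was 67.1%, 57.7%, 61.5% and 61.5% in that order. OGT (9812 nt) and OGA (7247 nt) were also in the upper quartile for length, though OGA was shorter than each of these genes. The GC contents of OGT and OGA were 42.9% and 44.0%. The 513 tested genes in the upper quartile of both measures had a median log2 fold change of -0.72 (quartiles -1.51 and -0.098), and 66.1% of them were called lower and 10.3% higher. Among these 513, 6 lay below HCFC1, ZMIZ1 and TNRC18 included. Genes in the upper quartile of length and the lowest of GC content had a median of -0.00070 (1299 genes), and the median of all genes was 0.0017.

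With a correction for length and GC content the falls of HCFC1, ZMIZ1, TNRC18 and ZMIZ2 were smaller. The correction subtracted from each library a smooth trend of the log2 deviations on exonic length and GC content. The log2 fold change was then -2.90 for HCFC1, -3.04 for ZMIZ1, -2.35 for TNRC18 and -1.14 for ZMIZ2. HCFC1 then ranked 30th from the lowest, ZMIZ1 23rd and TNRC18 91st, against 10th, 9th and 7th as fitted. For OGA it was -0.72 and for OGT -0.19, little different from the values without it. The correction takes off only an average trend, and HCFC1, ZMIZ1 and TNRC18 were chosen for their falls. The part of length and GC content in these falls was not tested.

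**Figure D2:**
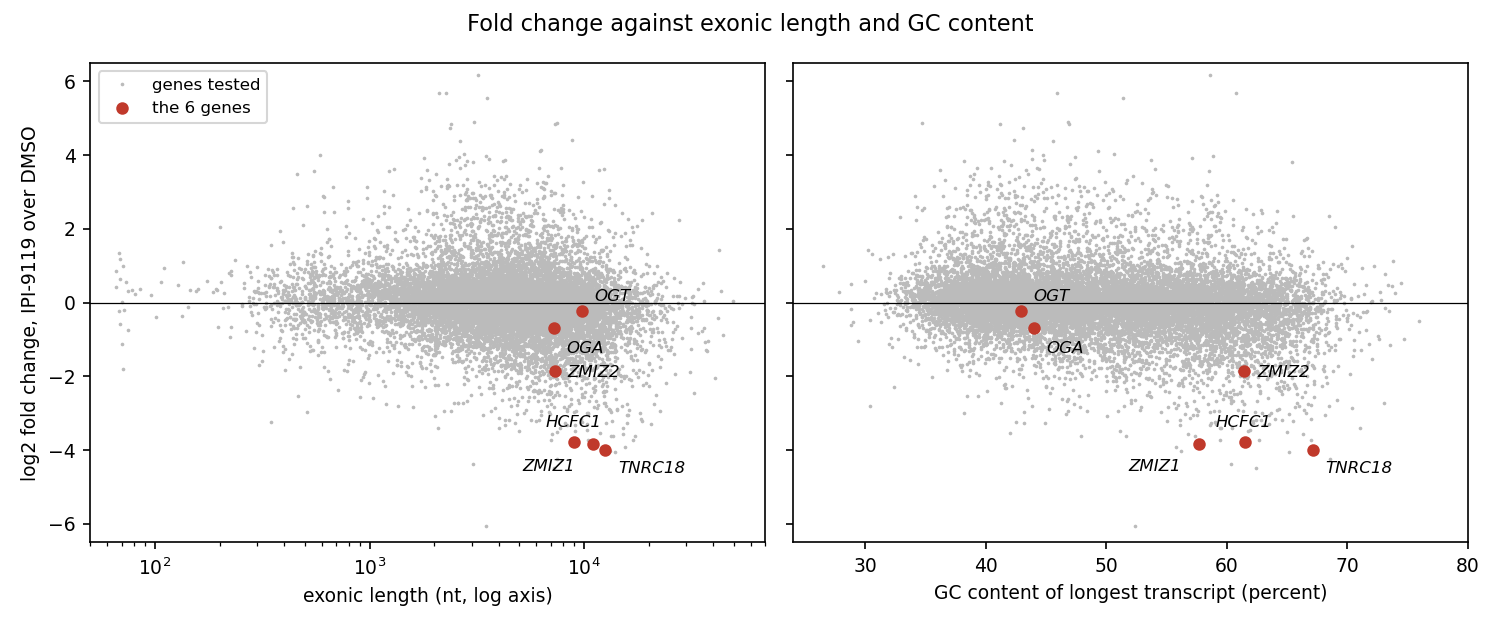
Log2 fold change (IPI-9119 over DMSO) of the genes tested that have both values (grey) and of the 6 genes (red), against exonic length on a log axis (left) and GC content of the longest transcript in percent (right). HCFC1, ZMIZ1 and TNRC18 lie at the lower edge among long genes and among those with 57.7% to 67.1% GC.

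**Figure D3:**
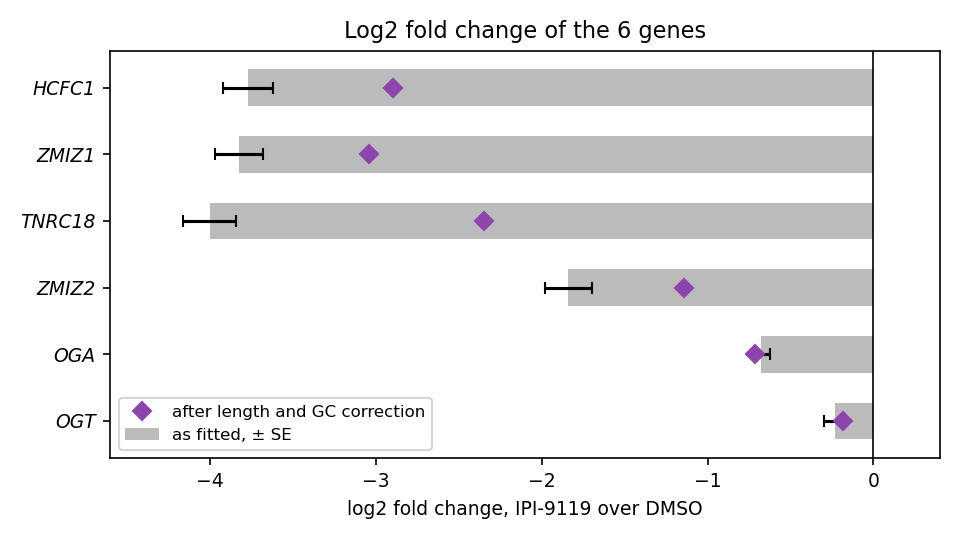
Log2 fold change of IPI-9119 over DMSO for the 6 genes as fitted (grey bars, ± SE) and after the length and GC correction (purple diamonds). The correction moves TNRC18 most, to -2.35 from -4.00, and leaves OGA and OGT close to their fitted values.

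Genes with a like pattern over the 6 libraries were also long. Likeness was the root mean square difference of mean-centred log2 values, over 9793 other protein-coding genes with a mean of at least 100. It takes in the difference between the groups by which HCFC1, ZMIZ1 and TNRC18 were chosen, so it favours genes with falls of like size. For HCFC1 the nearest were PLEC (0.081), ZMIZ1 (0.11), SPEN (0.13), SRRM2 (0.17) and TNRC18 (0.19). Among the 5 nearest to ZMIZ1 were HCFC1 (0.11), SRRM2 (0.12), PLEC (0.14) and BCL9L (0.15), and among the 5 nearest to TNRC18 were PLEC (0.18), HCFC1 (0.19), SRRM2 (0.22) and ZMIZ1 (0.23). PLEC encodes the cytoskeletal linker plectin, SPEN a corepressor, SRRM2 a scaffold of nuclear speckles and BCL9L a coactivator of beta-catenin. PLEC, the nearest to both HCFC1 and TNRC18, had 87.5, 104 and 96.8 normalised counts with IPI-9119, against 1118, 1563 and 1158 with DMSO. PLEC, SPEN, SRRM2 and BCL9L had log2 fold changes of -4.03 to -3.62, exonic lengths of 10470 to 16991 nt and GC contents of 51.7% to 67.0%. ZMIZ2 was the 211th nearest to HCFC1, OGA the 1404th and OGT the 3212th.

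The nearest tested genes on each side of the 6, at gaps of 0 to 1143 kb, moved in both directions. Among the 3 nearest tested protein-coding genes on each side of HCFC1, RENBP (log2 fold change -0.56), NAA10 (0.080), ARHGAP4 (-0.50), TMEM187 (0.15) and IRAK1 (0.0017) did not pass. Next to TNRC18, FBXL18, an F-box protein gene, fell by 1.92 on the log2 scale, and the actin gene ACTB (-0.28) and RBAK (-0.43) were also lower. There FSCN1, encoding the actin bundler fascin, was higher (0.53), and WIPI2 (-0.037) and SLC29A4 (0.53) did not pass. SLC29A4 overlaps TNRC18 on the opposite strand, and as the strand setting of the counting is not given in the sources used here, reads in the overlap cannot be told apart. The same holds for 2 further antisense genes over TNRC18 and for HCFC1-AS1 over HCFC1, which were not in the table.

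Beside ZMIZ1, the mitochondrial cyclophilin gene PPIF (0.56), ZCCHC24 (0.36) and RPS24 (0.19) were higher. The polarity gene DLG5 (-1.22) and POLR3A (-0.42) were lower, and EIF5AL1 (0.016) did not pass. Of these, RPS24, POLR3A and DLG5 lay 1012 to 1143 kb from ZMIZ1. Beside ZMIZ2, OGDH (-0.32) and DDX56 (-0.34) were lower, PPIA (0.31) was higher, and TMED4 (0.079), H2AZ2 (-0.023) and PURB (-0.15) did not pass. Beside OGA, NPM3 (0.93), HPS6 (0.28) and DPCD (0.26) were higher and FBXW4 (-1.34), LDB1 (-0.34) and ARMH3 (-0.20) lower. Beside OGT, ERCC6L, a mitotic helicase gene, was higher (3.09), and ZMYM3 (-1.33), TAF1 (-0.79) and NONO (-0.41) were lower. RTL5 (-0.0013) and PIN4 (0.079) did not pass. RTL5, PIN4 and ERCC6L lay 551 to 629 kb from OGT. Over the 36 neighbours, 9 were called higher, 14 lower and 13 did not pass (limma, adjusted p under 0.05), against 31.3% higher and 31.4% lower over all genes.

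**Figure D4:**
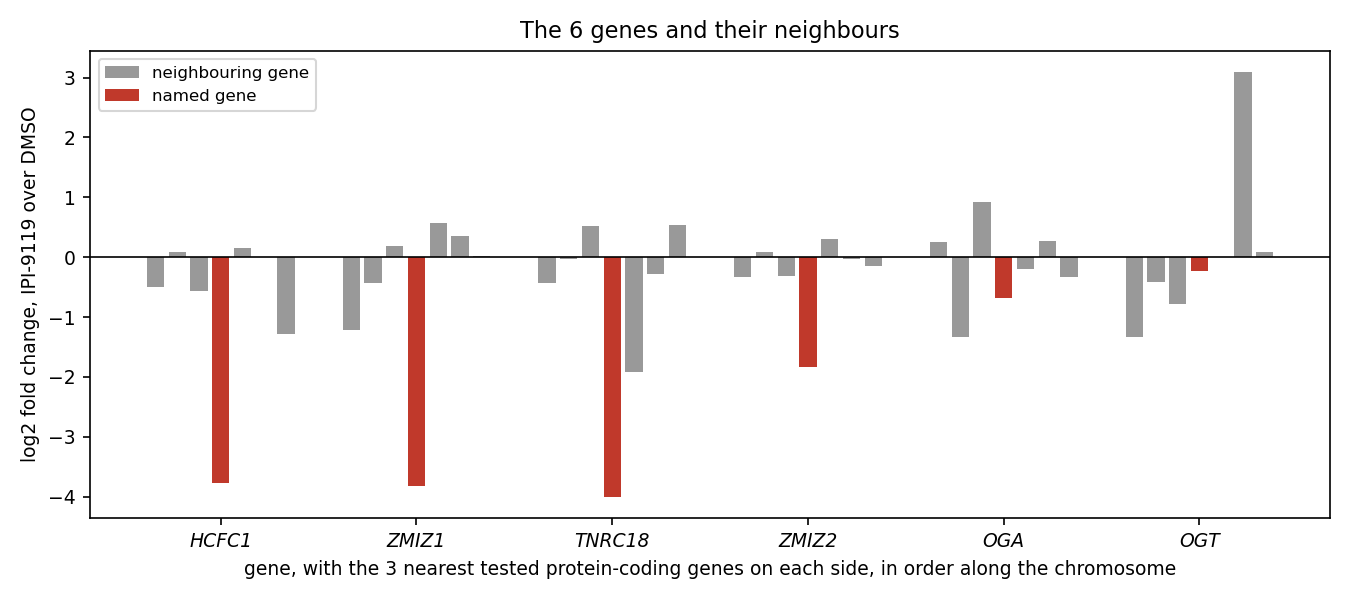
Log2 fold change (IPI-9119 over DMSO) of the 6 genes (red bars) and of the 3 nearest tested protein-coding genes on each side (grey bars), in order along the chromosome. HCFC1, ZMIZ1 and TNRC18 are lower than each of their neighbours, of which FBXL18 beside TNRC18 is the lowest (-1.92). These 3 were chosen by their fall, so their place below the neighbours was largely set by that choice.

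Sequence before RefSeq starts was at hand for TNRC18, ZMIZ2, OGA and OGT (GRCh38.p14). These starts differ from the GENCODE 29 gene ends given above, and the TNRC18 window lies inside its GENCODE interval. The 250 bases before the RefSeq start are shown for TNRC18 and ZMIZ2, which fell several-fold, and for OGT, which fell little, 5′ to 3′ on the gene's strand. Capitals mark 4 motifs on either strand, GGGCGG (the GC box of SP factors), CCAAT (bound by NF-Y), CCGGAAG (ETS factors) and ACTACA (part of the element of ZNF143 and THAP11).
TNRC18, chr7:5423835-5424084, minus strand: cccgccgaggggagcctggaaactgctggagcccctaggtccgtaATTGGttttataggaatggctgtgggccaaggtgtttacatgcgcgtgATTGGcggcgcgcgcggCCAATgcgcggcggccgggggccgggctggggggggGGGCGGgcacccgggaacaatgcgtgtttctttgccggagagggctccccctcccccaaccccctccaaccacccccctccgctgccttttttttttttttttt
ZMIZ2, chr7:44748321-44748570, plus strand: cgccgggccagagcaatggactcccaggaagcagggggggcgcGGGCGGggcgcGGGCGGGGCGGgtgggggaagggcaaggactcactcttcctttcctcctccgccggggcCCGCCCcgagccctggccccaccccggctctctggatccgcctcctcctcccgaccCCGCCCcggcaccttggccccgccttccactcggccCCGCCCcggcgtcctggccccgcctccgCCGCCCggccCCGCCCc
OGT, chrX:71532854-71533103, plus strand: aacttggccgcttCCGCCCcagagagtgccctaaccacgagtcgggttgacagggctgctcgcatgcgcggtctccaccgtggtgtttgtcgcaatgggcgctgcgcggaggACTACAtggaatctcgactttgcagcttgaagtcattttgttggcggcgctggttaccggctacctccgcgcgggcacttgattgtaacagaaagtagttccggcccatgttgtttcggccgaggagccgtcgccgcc
The TNRC18 window held 3 CCAAT matches and 1 GGGCGG, and the ZMIZ2 window at this start, the first of 3 in the table, held 8 GGGCGG matches, some of them overlapping. The OGT window held 1 GGGCGG and 1 ACTACA, and the OGA window 2 GGGCGG. None of these 4 windows held CCGGAAG. Of 35116 windows of this length, 42.6% held GGGCGG, 32.0% CCAAT, 8.52% CCGGAAG and 7.28% ACTACA. GC content was 64.8% for TNRC18, 80.4% for ZMIZ2 and 60.8% each for OGA and OGT, with a median of 58.0% over all windows.

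The methyltransferases that work with HCF-1 fell several-fold, and the subunits they share changed little. In a list of 42 genes of HCF-1 complexes and of the factors that recruit it, all tested, 23 were called lower, 5 higher and 14 did not pass, with a median log2 fold change of -0.25 (all genes 31.4% lower, 31.3% higher, median 0.0017). KMT2B, an H3K4 methyltransferase of the MLL type, had 12.7, 17.5 and 14.3 normalised counts with IPI-9119, against 129, 170 and 163 with DMSO (log2 fold change -3.30, SE 0.21, limma, adjusted p 1.0e-08). The catalytic subunits of the SET1 complexes, SETD1A (-2.96) and SETD1B (-2.94), fell nearly as far, and KMT2A fell too (-1.87).

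Among their shared subunits, WDR5 (0.092) and RBBP5 (0.0046) did not pass, ASH2L was slightly lower (-0.27) and DPY30 higher (0.42). FOXK1, a forkhead factor of the BAP1 complex, was lower (-2.87), and the deubiquitinase gene BAP1 itself did not pass (-0.0075). The recruiting factor genes THAP11 (0.14), ZNF143 (-0.11) and THAP1 (-0.097) did not pass. Of the other DNA-binding factor genes in the list, SP1 (-0.62), YY1 (-0.48) and GABPA (-0.23) were lower. THAP3 (0.091), E2F4 (-0.21) and POU2F1 (-0.18) did not pass. E2F1, which encodes a cell cycle factor that binds HCF-1, was higher, with 686, 708 and 739 normalised counts with IPI-9119, against 181, 164 and 164 with DMSO (log2 fold change 2.06). CREB3, a membrane-bound factor gene, was slightly higher (0.22). HCFC2, the paralog of HCFC1, fell by 0.39 on the log2 scale. KMT2B, SETD1A and SETD1B had exonic lengths of 10279, 6832 and 8314 nt and GC contents of 63.5%, 62.3% and 61.3%, and their values after the length and GC correction were -2.18, -2.27 and -2.14.

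Genes that supply UDP-GlcNAc, the donor used by OGT, went both ways. The list of hexosamine and UDP-GlcNAc supply held 17 genes, of which 15 were tested, with 4 called lower (26.7%), 6 higher (40.0%) and 5 not past (median 0.12, against 31.4% lower, 31.3% higher and a median of 0.0017 over all genes). The 4 called lower act in the synthesis from fructose 6-phosphate, a grouping made after their values were seen. They were GFPT1, which commits sugar to the pathway (-0.38), the acetyltransferase GNPNAT1 (-0.36), the mutase PGM3 (-0.57) and the pyrophosphorylase UAP1 (-0.76). UAP1, the last step, had 12561, 12265 and 11944 normalised counts with IPI-9119, against 21297, 20238 and 20535 with DMSO, and the groups were far apart (limma, adjusted p 2.9e-09). GFPT2 and GNE were not in the table, and UAP1L1, the paralog of UAP1, was higher (0.31).

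Those that rose included SLC35B4 (1.07), a Golgi nucleotide sugar transporter gene, GNPDA1 (0.87), whose enzyme returns glucosamine 6-phosphate to glycolysis, and the lysosomal hexosaminidase gene HEXA (0.42). GNPDA1 had 2005, 1985 and 1940.0 normalised counts with IPI-9119, against 1103, 1112 and 1038 with DMSO. NAGK (-0.11), the kinase that salvages N-acetylglucosamine, did not pass, nor did EOGT (-0.14), the separate transferase of the secretory pathway.

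Relatives of ZMIZ1 and ZMIZ2 went both ways. Of 21 genes of the PIAS family and the SUMO pathway, all tested, 8 were lower (38.1%), 9 higher (42.9%) and 4 did not pass. The shares over all genes were 31.4% lower and 31.3% higher, and the list median was 0.080, against 0.0017 over all genes. The SUMO ligase genes PIAS4 (-0.81), PIAS3 (-0.69) and PIAS1 (-0.24) were lower and PIAS2 (0.31) higher. The gene RANBP2, a nucleoporin with SUMO ligase activity, fell by 0.90 on the log2 scale. The modifier genes SUMO2 (0.41) and SUMO3 (0.32) and the activating enzyme genes SAE1 (0.30) and UBA2 (0.37) rose modestly, as did the protease gene SENP1 (0.46). None of these genes fell as far as ZMIZ2 (-1.84).

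BAHCC1, the paralog of TNRC18, fell with it. It had 8.43, 20.7 and 10.998 normalised counts with IPI-9119, against 117, 153 and 107 with DMSO, a low level with IPI-9119 in all libraries (log2 fold change -3.22, SE 0.29, limma, adjusted p 3.6e-07). In the list of H3K9 methylation, BAH proteins and corepressors, 20 of 31 genes, all tested, were lower, 6 higher and 5 did not pass, with a median of -0.38 (all genes 31.4% lower, 31.3% higher, median 0.0017).

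WIZ (-2.49), a zinc finger partner of the G9a methyltransferase, and the corepressor gene NCOR1 (-2.03) were also lower. The writers of H3K9 methylation were split, with EHMT1 (-1.44) and EHMT2 (-0.86) lower, SUV39H2 (1.01), SUV39H1 (0.46) and SETDB2 (0.34) higher, and SETDB1 (-0.050) not past. SUV39H2 had 697, 680 and 685 normalised counts with IPI-9119, against 317, 332 and 377 with DMSO. The deacetylase gene HDAC3 was also higher (0.42). BAHCC1 and WIZ had exonic lengths of 13473 and 9826 nt and GC contents of 65.5% and 64.6%, and their values after the length and GC correction were -1.63 and -1.35. The list median was then -0.28, and that of the HCF-1 list -0.25.

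**Figure D5:**
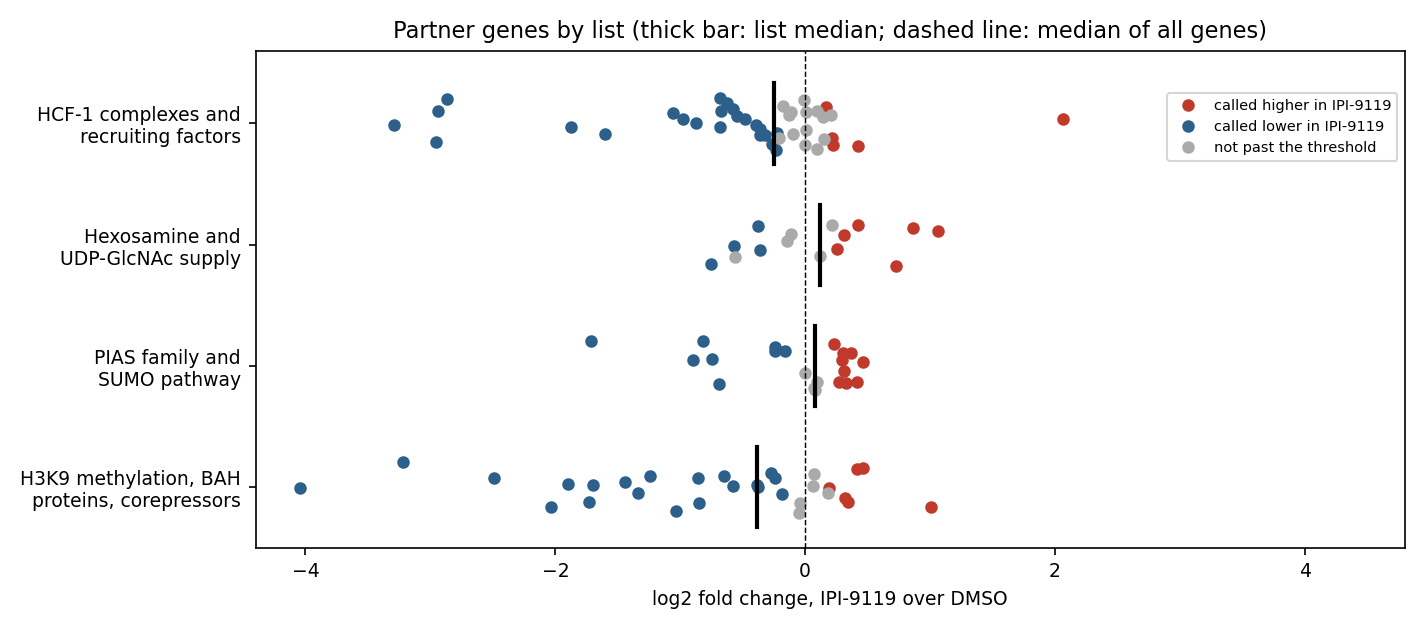
Log2 fold change (IPI-9119 over DMSO) of each tested gene of 4 lists of partner genes, coloured by whether it was called higher (red), lower (blue) or did not pass (grey, limma, adjusted p under 0.05), with the list median (thick bar) and the median of all genes (dashed line). The medians of the HCF-1 list (-0.25) and the H3K9 list (-0.38) lie below that of all genes (0.0017).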

How the data were processed

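Polyadenylated RNA of C4-2 cells was measured by sequencing in 3 IPI-9119 and 3 DMSO libraries. The deposited values are a signal, read counts per gene scaled by the authors with 1 factor per library. Per the submitters' processing notes, the tools were STAR 2.5.2b, Trimmomatic 0.36, DESeq2, Subread 1.5.2 and featureCounts, listed without their roles, and the build was GRCh38. The annotation release and strand setting are not given in the sources used here.

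All values (100%) were whole multiples of the value of 1 read within 0.01 read, which gave the counts back. Chi-square per degree of freedom between replicates was 2.31 to 9.76, above sampling noise. The test was limma 3.58.1 (R 4.3.3, trend and robust moderation) on log2(value + 1) over 14437 genes with a mean of at least 10, with Benjamini-Hochberg adjustment over all of them, two-sided, calling adjusted p under 0.05. That scale understates the change of low genes. On the recovered counts edgeR 4.0.16 called 9081 genes and DESeq2 1.42.0 8460, against 9061 for limma. The main limma, edgeR and DESeq2 fits were tested on simulated counts. Positions, merged exonic length and GC content of the longest transcript came from GENCODE 29.

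The 6 genes, the 4 lists and the tests were chosen with earlier results of these data known. Named were the 6 genes, the 3 called genes of each list with the largest change each way, 3 neighbours on each side, and the 5 genes of most like pattern to HCFC1, ZMIZ1 and TNRC18. Other genes named within the lists were picked for their role, after their values were seen. Some genes that the rule names are not reported here. Alternatives were other pseudocounts (0.5, 8), no filter or a mean of at least 50, TMM and quantile scaling, no moderation by trend, the count tests, a replicate block, a length and GC correction (splines with 4 degrees of freedom, 99.6% of genes), and leaving out each library.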

Additional observations from a re-analysis of the deposited data

How the results depend on the processing

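Of 289 values recomputed for 17 results under 17 alternatives, 286 kept their direction and their side of the threshold, their place within the replicate SD, or a count within 1.5 times. The others were the falls of HCFC1, ZMIZ1 and TNRC18 after the length and GC correction, at log2 fold changes of -2.90, -3.04 and -2.35. Leaving out each library in turn gave -3.92 to -3.60 for HCFC1, -3.93 to -3.66 for ZMIZ1 and -4.16 to -3.81 for TNRC18, and the other alternatives -3.82 to -3.61, -3.83 to -3.76 and -4.06 to -3.79 in that order. The call of OGT was nearest to the threshold without trend and robust moderation (adjusted p 0.0467, limma) and without DMSO replicate 2 (0.0321).

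Whether the replicate numbers pair the libraries cannot be told from these values. The deviations of same-numbered libraries correlated by 0.14, 0.063 and 0.0044, and those of differently numbered libraries by -0.14 to 0.099. With a replicate block 9596 genes were called, against 9061 without it, and no call of OGT, OGA or ZMIZ2 changed. Of the 6 genes, depth limits TNRC18 and HCFC1 most, at 111 and 154 reads over the IPI-9119 libraries. BAHCC1, KMT2B, SETD1A and SETD1B rested on fewer reads still. The labels give no batch, so treatment and any batch cannot be told apart.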
